A study of Mus musculus with 12 samples.

Results

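The 10 genes described here encode antioxidant enzymes and their regulators: Gpx3, Gpx1, Gpx4, Sod1, Sod2, Sod3, Cat, Prdx3, Txnip and Hmox1. They were taken by symbol, and all 10 were found among the 21976 genes that both deposited count tables hold. They were chosen by name, with levels and differences measured in these same libraries already known. Which of those values decided the choice is not recorded, so every difference given for them is a description, and the p-values only show where each gene stood among all genes tested.

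The libraries, 3 in each of 4 groups, were made from RNA of C57BL/6N mouse skeletal muscle. In the PCN group, mice on a high-fat diet received 50 mg/kg of PCN (pregnenolone carbonitrile, a steroid that activates the rodent pregnane X receptor) into the peritoneum once daily for 4 days. The Vehicle group was on the same diet and was injected with the vehicle alone, which held 30% DMSO. The description of Vehicle 23 does not name the diet, unlike those of Vehicle 15 and Vehicle 55. The deposited comparison that holds it is named HFD PCN against HFD Vehicle. The HFD group had the high-fat diet and no injection, and the Chow group had regular chow and no injection. Diets began at 6 weeks of age and lasted 18 weeks in all groups, and no group carried a transgene or a deleted gene per the labels. The sources used here do not give which muscle was taken. The labels do not say that each library came from a separate mouse, so the p-values measure the spread between these samples, which may be technical.

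Muscle turns over much oxygen, and its mitochondria and membrane oxidases release superoxide. Superoxide dismutases turn superoxide into hydrogen peroxide, and catalase, glutathione peroxidases and peroxiredoxins then break the peroxide down. Thioredoxin keeps peroxiredoxins reduced, and thioredoxin-interacting protein, the product of Txnip, binds thioredoxin and also limits glucose uptake. Txnip transcription is known to follow cellular glucose through the factors MondoA and ChREBP, which bind pairs of E-boxes, and Hmox1 is a classical target of NRF2, the main activator of antioxidant genes.

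Libraries held 14379421 to 19739226 counts in PCN, 16790642 to 17628784 in Vehicle, 14266093 to 17096576 in HFD and 12770308 to 18920359 in Chow. Of 10 skeletal muscle markers, 9 were in both tables, and their summed level was 89138 to 166258 CPM (counts scaled to library size) over the 12 libraries. A list of 6 slow and oxidative fibre genes (Myh7b, Casq2, Tpm3, Mb, Ckmt2 and Cd36), chosen after the data were seen, set 2 injected libraries apart. Its summed level was 5034 CPM in PCN 5 and 5624 CPM in Vehicle 55, against 1159 to 2182 CPM in the other injected libraries, and 1 of the 6 genes was at 0 in PCN 11. It was 1432 to 3303 CPM in HFD and 2482 to 5321 CPM in Chow. Mb made up most of the sum in every library, with 3394 CPM in PCN 5 and 3821 CPM in Vehicle 55. The planned slow fibre list, which includes Myh7, had no gene in both tables. Where Myh7 was counted, it did not follow the sum throughout. Chow 19 had 312 CPM of Myh7 at a sum of 3397 CPM, and HFD 38 had 2.03 CPM at 3303 CPM. The 7 fibroblast markers summed to 282 to 467 CPM in PCN and 349 to 492 CPM in Vehicle, against 516 to 934 CPM in HFD, with 503 to 763 CPM in Chow. The injected groups thus lay below HFD in fibroblast markers, and the part of this in the results below was not tested. In bulk muscle, fewer cells of a type and less RNA per cell cannot be told apart.

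The promoter of Txnip is shown because Txnip passed the threshold in both comparisons of injected with uninjected HFD muscle. RefSeq starts gave windows of 250 bases upstream for 8 of the 10 genes. The Txnip window, at chr3:96557707-96557956 on the plus strand of GRCm38.p6, reads as follows, with capitals on 2 motif matches.
Txnip: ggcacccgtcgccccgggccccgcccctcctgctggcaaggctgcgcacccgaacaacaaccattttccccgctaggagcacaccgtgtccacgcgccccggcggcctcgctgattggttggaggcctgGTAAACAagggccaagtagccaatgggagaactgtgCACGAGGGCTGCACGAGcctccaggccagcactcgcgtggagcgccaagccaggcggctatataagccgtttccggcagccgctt
The second match is a pair of E-box-like motifs, searched on both strands as 2 copies of CACGNG with 5 bases between, and it starts 85 bases before the transcript start. These letters were chosen with the Txnip window in view. They occurred in 15 of 32851 windows of the same length (0.0457%) and in no window of the other 7 genes. The first match is the FOXO core TGTTTAC on the minus strand, which was in 3.17% of windows. The antioxidant response element core TGACNNNGC was in 10.2% of windows and, among the 8 genes, only in the Sod1 window, as GCGTGGTCA read on the plus strand. A match describes letters and does not show that a factor bound there.

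Levels are compared between genes as CPM per kilobase of exon, averaged over 12 libraries. The length is that of all annotated exons of a gene merged, which can exceed the length of the transcripts present. It was 10.01 kb for Sod2, 3.97 kb for Sod1 and 1.44 kb for Gpx1, so the order below depends on the annotation. Before this division Sod2 averaged 201 CPM, against 200 CPM for Cat and 146 CPM for Gpx4. Txnip was highest at 128 CPM per kb, ahead of Gpx4 at 84.8, Cat at 76.4, Prdx3 at 56.5 and Gpx3 at 50.0 CPM per kb. Sod1 at 20.9, Sod2 at 20.1 and Gpx1 at 17.3 CPM per kb formed a middle rank, with Hmox1 at 7.16 and Sod3 at 1.28 CPM per kb at the bottom. The 3 in that middle rank differed by less than their ranges over libraries. Sod3, which encodes the secreted superoxide dismutase, rested on 38 to 190 counts per library, and all 10 genes passed the expression filter in each comparison. The highest library exceeded the lowest by 4.61-fold for Hmox1 and 4.56-fold for Cat, but by 1.57-fold for Prdx3.

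**Figure D1:**
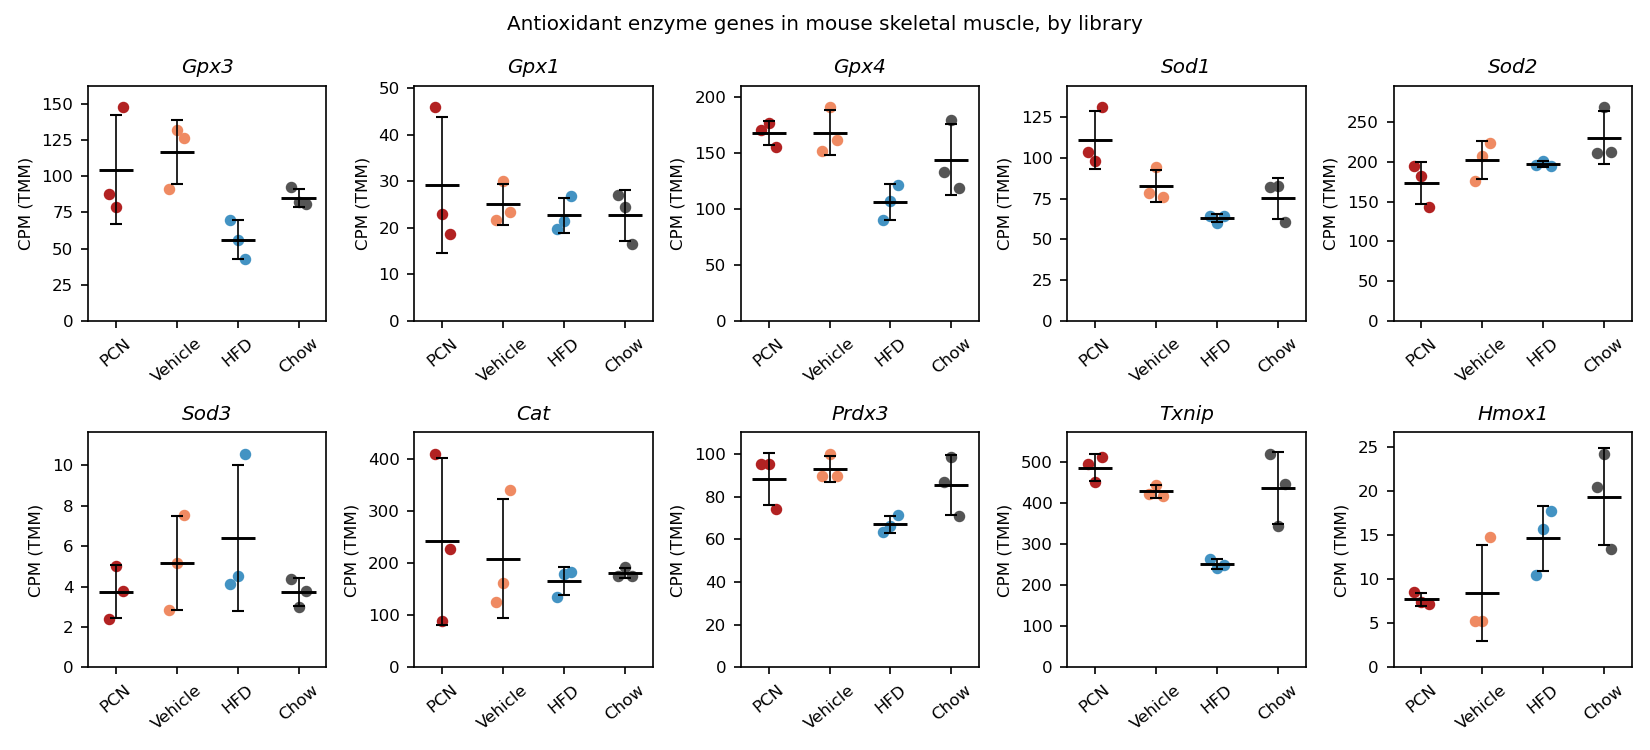
CPM normalised by the trimmed mean of M values (TMM) for the 10 genes, 1 panel each with its own axis from 0. Points are libraries, wide bars are group means and error bars are SD (n = 3). Txnip lies between 241 and 265 CPM in the 3 HFD libraries, below every library of the other 3 groups, while Cat is spread from 89.9 to 410 CPM within PCN alone.

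Vehicle set against HFD asks what went with the injections in mice on the high-fat diet. Gpx3 and Txnip were higher in Vehicle muscle, by 2.08-fold and 1.70-fold on the fitted scale, and were the members past the threshold. Gpx4, Prdx3 and Sod1 also had groups that did not overlap, with lower values in HFD, but did not pass. Both groups come from separately deposited tables joined on shared genes, so injection and any difference in how the libraries were made or counted cannot be told apart.

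Gpx3 encodes the secreted plasma glutathione peroxidase, at chr11:54902453-54910377 in GRCm38. Gpx3 stood at 91.1, 132 and 127 CPM in Vehicle muscle, against 69.9, 56.2 and 42.5 CPM in HFD muscle. Every Vehicle library was above every HFD library. The log2 fold change was 1.06 ± 0.20 (SE), with an adjusted p of 0.0452 by the edgeR quasi-likelihood F test over 12746 genes.

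Txnip, at chr3:96557957-96561883, had 422, 445 and 418 CPM in Vehicle libraries, against 265, 241 and 250 CPM in HFD libraries. The groups were narrow and far apart, and the log2 fold change was 0.76 ± 0.13 (adjusted p = 0.0344, edgeR). An antisense RNA, Gm15441, overlaps exons of Txnip on the other strand, and its own level was 0.116 to 0.769 CPM over all 12 libraries. The sources used here do not give the strand setting of the counting.

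With all 12 libraries in 1 fit, 0 of the genes tested between Vehicle and HFD passed, and the adjusted p was 0.206 for both Gpx3 and Txnip. Each also lost its call when 1 of the libraries Vehicle 15, Vehicle 23, HFD 4, HFD 30 or HFD 38 was left out, with Gpx3 at 0.89 to 1.24 and Txnip at 0.74 to 0.80 over all such fits.

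Gpx4, whose product reduces lipid peroxides in membranes, had 152, 191 and 162 CPM in Vehicle, against 89.6, 107 and 121 CPM in HFD. Its log2 fold change of 0.66 ± 0.15 missed the threshold (adjusted p = 0.0642, edgeR), and passed without Vehicle 55 (0.0220). A processed pseudogene, Gpx4-ps2, could share reads with it. Prdx3, the mitochondrial peroxiredoxin, had 89.9, 100.2 and 89.5 CPM in Vehicle, against 63.7, 66.4 and 71.3 CPM in HFD. Sod1, the cytosolic superoxide dismutase, had 78.5, 94.3 and 75.8 CPM in Vehicle, against 64.3, 60.3 and 64.4 CPM in HFD. These 2 genes had log2 fold changes of 0.47 ± 0.12 (adjusted p = 0.0806) and 0.40 ± 0.13 (adjusted p = 0.144, edgeR), again with no overlap. Each passed without Vehicle 55 (0.0286 and 0.0461). The fit without Vehicle 55 called 1180 genes in all, against 193 with every library. Over all fits with 1 library left out, the adjusted p (edgeR) reached 0.277 for Gpx4, 0.327 for Prdx3 and 0.455 for Sod1.

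The other 5 genes overlapped between Vehicle and HFD. Hmox1, the stress-induced enzyme that breaks down heme, had 5.3, 5.3 and 14.7 CPM in Vehicle, against 10.5, 15.7 and 17.7 CPM in HFD. The high Vehicle library was Vehicle 55, which also had the highest sum of 6 red blood cell markers, 215 CPM against 45.0 to 136 CPM in the other 11 libraries (1 of the 6 was at 0 in HFD 4). Across all libraries the log2 fold change was -0.80 ± 0.46 (adjusted p = 0.439, edgeR), and without Vehicle 55 it was -1.48 (adjusted p = 0.00373). With 1 library or another left out, the adjusted p (edgeR) reached 0.731. The part of blood in the Hmox1 values was not tested. Log2 fold changes were 0.34 for Cat, 0.14 for Gpx1, 0.03 for Sod2 and -0.33 for Sod3.

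Of the 10 genes, 2 passed the threshold higher in Vehicle, against 0.526% of all genes tested, and 0 passed lower, against 0.989%. Groups did not overlap, higher in Vehicle, for 5 of the 10, against 12.2% of all genes. The median log2 fold change was 0.37 for the 10 genes and -0.001 for all genes.

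**Figure D2:**
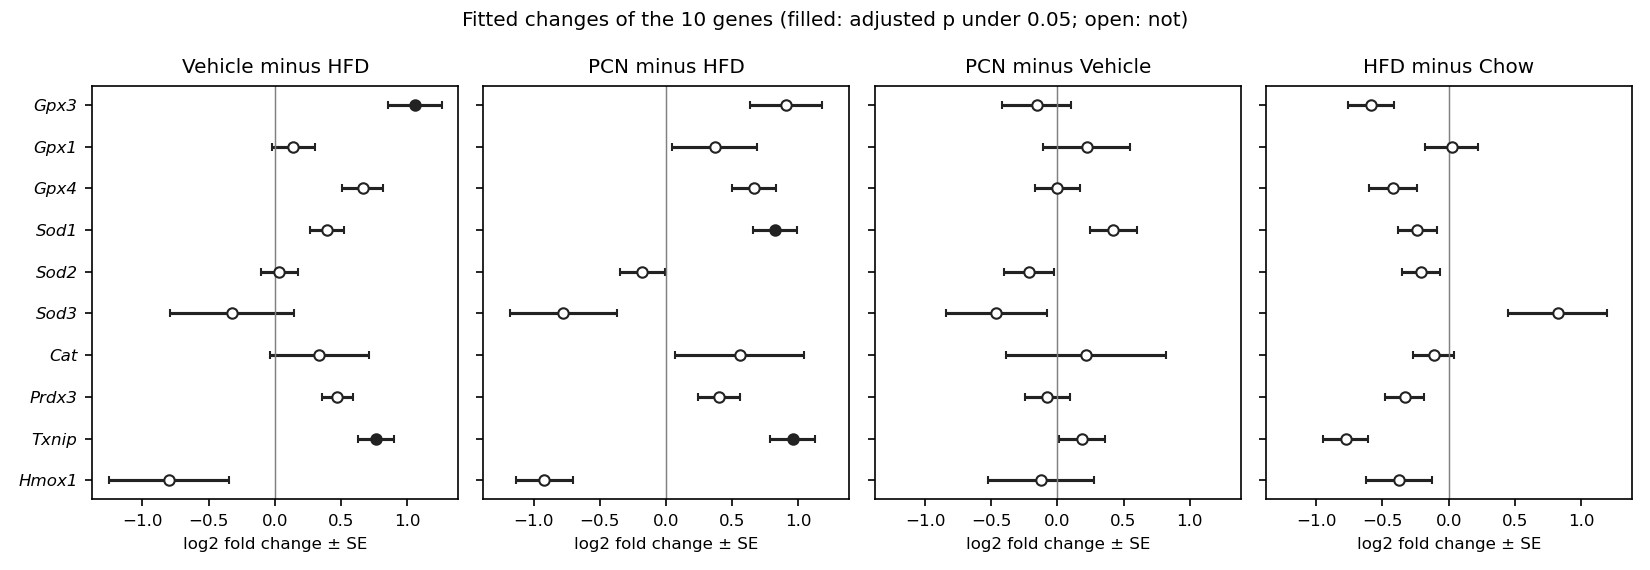
Fitted log2 fold changes with SE for the 10 genes in 4 comparisons, each titled as the first group minus the second and fitted on its own 6 libraries. Filled points had an adjusted p under 0.05, which holds for Gpx3 and Txnip in Vehicle minus HFD and for Sod1 and Txnip in PCN minus HFD.

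PCN against HFD adds the drug to the injections. Txnip and Sod1 were higher in PCN muscle, by 1.94-fold and 1.77-fold on the fitted scale, and passed the threshold. Gpx3, Gpx4 and Prdx3 were also above HFD in every PCN library, and Hmox1 was below it in every one, without passing. This comparison shares the HFD libraries with the previous one, so the values stand side by side and are not independent.

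Txnip had 496, 451 and 513 CPM in PCN, against 265, 241 and 250 CPM in HFD. The lowest PCN library was well above the highest HFD library. Its log2 fold change was 0.96 ± 0.17 (adjusted p = 0.0272, edgeR).

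Sod1 had 104, 98.1 and 131 CPM in PCN, against 64.3, 60.3 and 64.4 CPM in HFD. PCN 27 was the highest of the 12 libraries for this gene. The log2 fold change was 0.82 ± 0.16 (adjusted p = 0.0343, edgeR). The call for Sod1 was lost without PCN 27 or any 1 HFD library, and that for Txnip without any 1 HFD library. Over all fits with 1 library left out, the log2 fold changes ran from 0.68 to 0.94 for Sod1 and from 0.91 to 1.04 for Txnip.

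Gpx3 had 87.6, 78.5 and 148 CPM in PCN, against 69.9, 56.2 and 42.5 CPM in HFD. PCN 27 lay far above the other 2 PCN libraries, and the log2 fold change of 0.91 ± 0.27 (adjusted p = 0.109, edgeR) was 0.57 without it. Gpx4 had 170, 176 and 156 CPM in PCN, against 89.6, 107 and 121 CPM in HFD, with a log2 fold change of 0.67 ± 0.17 (adjusted p = 0.0661, edgeR). Prdx3 had 95.3, 95.4 and 74.1 CPM in PCN, against 63.7, 66.4 and 71.3 CPM in HFD, and differed by 0.40 (log2). Gpx3 and Gpx4 showed no overlap, and Prdx3 had PCN 27 just above HFD 38.

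Hmox1 had 8.6, 7.4 and 7.2 CPM in PCN, against 10.5, 15.7 and 17.7 CPM in HFD. PCN libraries were close together and below HFD throughout, at a log2 fold change of -0.92 ± 0.21 (adjusted p = 0.0535, edgeR). Sod3 had 2.4, 5.0 and 3.8 CPM in PCN, against 4.1, 4.5 and 10.6 CPM in HFD. The high library, HFD 38, also had the highest sums of fibroblast markers (934 CPM) and of adipocyte markers (532 CPM against 67.5 to 365 CPM in the other 11), and their part in the Sod3 value was not tested.

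Of the 10 genes, 2 passed higher in PCN, against 1.3% of all 12686 genes tested, and 0 lower, against 1.64%. Groups did not overlap for 5 genes that were higher (14.2% of all genes) and 1 that was lower (12.8%). Red blood cell markers also did not overlap, at 63.3 to 76.4 CPM in PCN, against 49.0 to 60.3 CPM in HFD, and their part was not tested. The median log2 fold change was 0.48, against 0.01 for all genes.

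PCN against Vehicle asks what went with the drug, since both groups were injected. 0 of 12833 genes passed the threshold (0%), so 0 of the 10 did, and the lowest adjusted p over all genes was 0.998. DESeq2 also called 0. At an unadjusted p under 0.05 edgeR called 362 genes (2.82%). Of the 10, this took 1 gene, Sod1.

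Sod1 had 104, 98.1 and 131 CPM in PCN, against 78.5, 94.3 and 75.8 CPM in Vehicle. Each PCN library lay above each Vehicle library, by 0.42 ± 0.18 on the log2 scale (adjusted p = 0.998, edgeR). Txnip, at 0.19, also had groups that did not overlap, with 496, 451 and 513 CPM in PCN, against 422, 445 and 418 CPM in Vehicle. These were 2 of 10 genes, against 4.4% of all genes higher in PCN without overlap. Gpx3 at -0.16, Gpx4 at 0.00 and Prdx3 at -0.07 (log2) had groups that overlapped.

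Cat, which encodes catalase of the peroxisome, was spread widely within both injected groups. Cat had 410, 89.9 and 227 CPM in PCN, against 125, 163 and 340 CPM in Vehicle. The high libraries were PCN 5 and Vehicle 55, the pair of injected libraries high in slow and oxidative fibre genes. The 2 measures did not go together throughout: Chow 17 had 193 CPM of Cat at a fibre gene sum of 5321 CPM, and PCN 27 had the third highest Cat level at the lowest sum, 1159 CPM. The log2 fold change was -0.40 without PCN 5 and 0.74 without Vehicle 55, so 1 library set its sign. Gpx1, the cytosolic glutathione peroxidase, had 45.9, 22.9 and 18.7 CPM in PCN, against 21.7, 30.0 and 23.3 CPM in Vehicle, and PCN 5 was again the high library. The part of fibre type in these values was not tested.

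**Figure D3:**
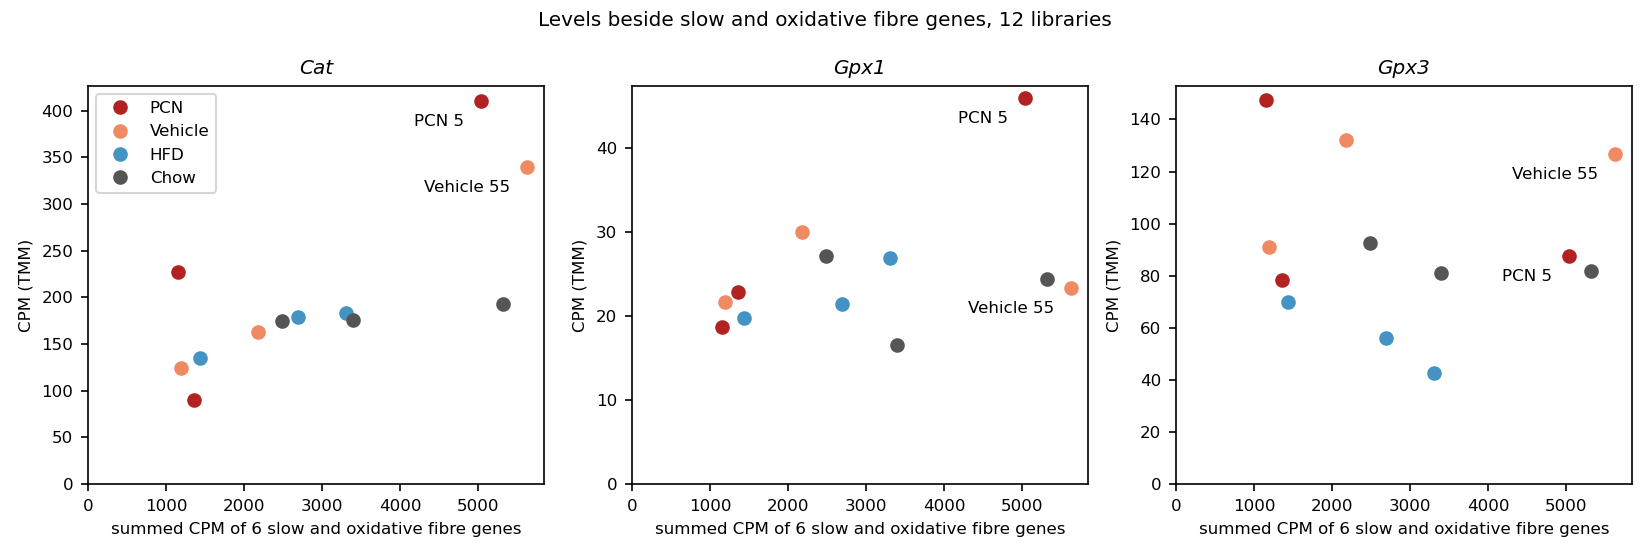
CPM of Cat, Gpx1 and Gpx3 in each of the 12 libraries (y axis, from 0) against a sum of marker genes (x axis), coloured by group. The x axis is the summed CPM of 6 slow and oxidative fibre genes, most of it from Mb. PCN 5 and Vehicle 55, at 5034 and 5624 CPM on the x axis, have the highest Cat levels (410 and 340 CPM), but Chow 17 lies between them on that axis with 193 CPM of Cat. PCN 27 has the lowest sum, 1159 CPM, with 227 CPM of Cat. The highest Gpx3 level (148 CPM) is also in PCN 27.

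HFD against Chow addresses the diet. 0 of 12686 genes passed edgeR's threshold (0%), and so 0 of the 10. DESeq2 called 43 genes, Txnip among them. At an unadjusted p under 0.05, edgeR gave 977 genes (7.7%), including 4 of the 10, all lower in HFD: Txnip, Gpx3, Gpx4 and Prdx3.

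Txnip had 265, 241 and 250 CPM in HFD, against 520, 344 and 446 CPM in Chow. The Chow libraries were spread, yet all lay above HFD. The log2 fold change was -0.78 ± 0.17 (adjusted p = 0.392 by edgeR and 0.00885 by DESeq2). The authors' deposited table gives Txnip a log2 fold change of -0.67 with an adjusted p of 0.01517 (DESeq2). That p was adjusted over 24093 genes, against 12686 in the edgeR test here, so the values are not the same measure. Without Chow 17 and Chow 19, which were high in slow fibre genes such as Myh7 (182 and 312 CPM, against 1.06 to 2.30 CPM in the other 4 libraries of that table), the log2 fold change was -1.04 (adjusted p = 0.178, edgeR). That fit leaves 1 Chow library, Chow 8, which had the highest Txnip level of all 12 and is assumed to vary like the HFD libraries, so the larger value follows from which library was left.

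Gpx3 had 69.9, 56.2 and 42.5 CPM in HFD, against 92.4, 81.8 and 81.0 CPM in Chow. HFD 38 was lowest and the Chow libraries were close together, with no overlap. The log2 fold change was -0.59 ± 0.18 (adjusted p = 0.557, edgeR). Gpx4 differed by -0.42 ± 0.18 with 89.6, 107 and 121 CPM in HFD, against 133, 180 and 119 CPM in Chow, and so overlapped by 1 library. Sod2, the mitochondrial manganese superoxide dismutase, had 197, 201.5 and 195 CPM in HFD, against 211, 269 and 212 CPM in Chow. Its HFD libraries were all lower than Chow but by only -0.21 on the log2 scale. Chow 17, high in slow fibre genes, was the highest Chow library for Gpx4, Sod2 and Prdx3 (98.7 CPM). Without it their log2 fold changes were -0.24, -0.09 and -0.23, against -0.33 for Prdx3 with all libraries. For Gpx3 and Txnip the highest was Chow 8. The part of fibre type was not tested. Groups did not overlap for 3 of the 10 genes, Gpx3, Txnip and Sod2, against 6.39% of all genes lower in HFD. Of the other cell types' markers, the 6 of red blood cells summed to 49.0 to 60.3 CPM in HFD, against 70.0 to 136 CPM in Chow. The 4 of smooth muscle summed to 43.2 to 59.8 CPM in HFD, against 64.5 to 74.2 CPM in Chow. Neither overlapped, and their part in these differences was not tested. The median log2 fold change was -0.28 for the 10 genes and 0.00 for all genes.

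Over the 4 groups in 1 fit, 24 of 13375 genes differed (0.179%) and 0 of the 10 did. The adjusted p was 0.0545 for Txnip, 0.0973 for Sod1, 0.123 for Gpx3, 0.156 for Gpx4 and 0.177 for Hmox1 (edgeR). At an unadjusted p under 0.05 there were 6 of the 10, against 15.5% of all genes. Group means for Txnip were 486 ± 32.2 CPM in PCN, 428 ± 14.7 in Vehicle, 252 ± 11.8 in HFD and 437 ± 88.4 in Chow (SD, n = 3 each). For Gpx3 they were 105 ± 37.5 CPM in PCN, 117 ± 22.3 in Vehicle, 56.2 ± 13.7 in HFD and 85.1 ± 6.35 in Chow. Both genes were lowest in HFD, and PCN, Vehicle and Chow overlapped for Gpx3. Hmox1 followed another order, at 7.72 ± 0.759 CPM in PCN, 8.42 ± 5.47 in Vehicle, 14.6 ± 3.71 in HFD and 19.4 ± 5.49 in Chow.

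The genes most like Gpx3 over the 12 libraries, by Pearson's r of log2 CPM among 6157 genes with a mean of at least 10 CPM, were Zfand3 (r = 0.946), Rwdd4a (0.897), Smim15 (0.878), Flot1 (0.870), Morf4l1 (0.867) and Rab12 (0.865). These share the same libraries and their depth with Gpx3. Among the 10 genes, Txnip was closest (r = 0.770, rank 104), then Sod1 (0.684) and Gpx4 (0.588), while Gpx1 had almost no relation (0.0014), and Sod2 (r = -0.200) and Hmox1 (r = -0.458) ran the other way.

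Further genes of the same chemistry were read from 5 lists. Calls in these lists depended on single libraries. No gene at all passed in PCN against HFD without HFD 4, or in Vehicle against HFD without Vehicle 23. Of 14 glutathione enzyme genes tested, Glrx3 passed in Vehicle against HFD, where 193 genes were called in all (1.51%). Glrx3, a glutaredoxin of iron-sulfur handling, averaged 81.4 ± 10.3 CPM in Vehicle and 50.6 ± 4.78 CPM in HFD (SD, n = 3 each), with a log2 fold change of 0.69 (adjusted p = 0.0452, edgeR). In PCN against HFD, Glrx3 passed at 0.80 (adjusted p = 0.0282), and Me1 passed lower at -0.86 (adjusted p = 0.0339). Me1, the cytosolic malic enzyme that supplies NADPH, averaged 85.7 ± 7.35 CPM in PCN and 156 ± 22.2 CPM in HFD. In Vehicle it averaged 102 ± 5.73 CPM, and Vehicle minus HFD was -0.62 without passing (adjusted p = 0.0623).

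Of the 20 genes of the peroxiredoxin and thioredoxin system tested, 0 passed in Vehicle against HFD and 1 passed in PCN against HFD, where 373 genes were called in all (2.94%). This gene was Sesn3, a sestrin that restrains mTORC1 signalling, which averaged 11.2 ± 3.89 CPM in PCN and 30.0 ± 1.49 CPM in HFD. The log2 fold change was -1.42 (adjusted p = 0.0263, edgeR). Txn1, the cytosolic thioredoxin that Txnip protein binds, differed by 0.89 in PCN against HFD and missed the threshold (adjusted p = 0.0559). Prdx1, a cytosolic peroxiredoxin, differed there by 0.56 (adjusted p = 0.101).

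Of 18 selenoprotein and selenium-pathway genes tested, 0 passed in either comparison. The lowest p in Vehicle against HFD was that of Msrb1, a methionine sulfoxide reductase, at 0.51 (adjusted p = 0.0885, edgeR). In PCN against HFD it was that of Sephs2, which makes the selenium donor for selenoproteins, at 0.70 (adjusted p = 0.0632). The list's median log2 fold change was 0.20 in Vehicle and 0.26 in PCN, each against HFD.

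Of 19 genes of the NRF2 axis and of heme or iron handling tested, 1 passed in Vehicle against HFD (1.51% of all genes) and 1 in PCN against HFD (2.94%). Nqo2, a quinone reductase, averaged 10.9 ± 0.961 CPM in Vehicle and 18.1 ± 0.521 CPM in HFD (log2 fold change -0.73, adjusted p = 0.0377, edgeR), and PCN minus HFD was -0.72 without passing (adjusted p = 0.275). Gstp1, a glutathione transferase, averaged 38.3 ± 3.54 CPM in PCN and 20.9 ± 1.08 CPM in HFD (log2 fold change 0.88, adjusted p = 0.0263), and Vehicle minus HFD was 0.63 without passing (adjusted p = 0.0886). Gstp1 has near-identical copies, so its reads could be split. Bach1, the repressor of Hmox1, was at -0.65 in Vehicle against HFD and did not pass (adjusted p = 0.0621). Of 11 tested genes that produce reactive oxygen in PCN against HFD, and 10 in Vehicle against HFD, 0 passed.

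**Figure D4:**
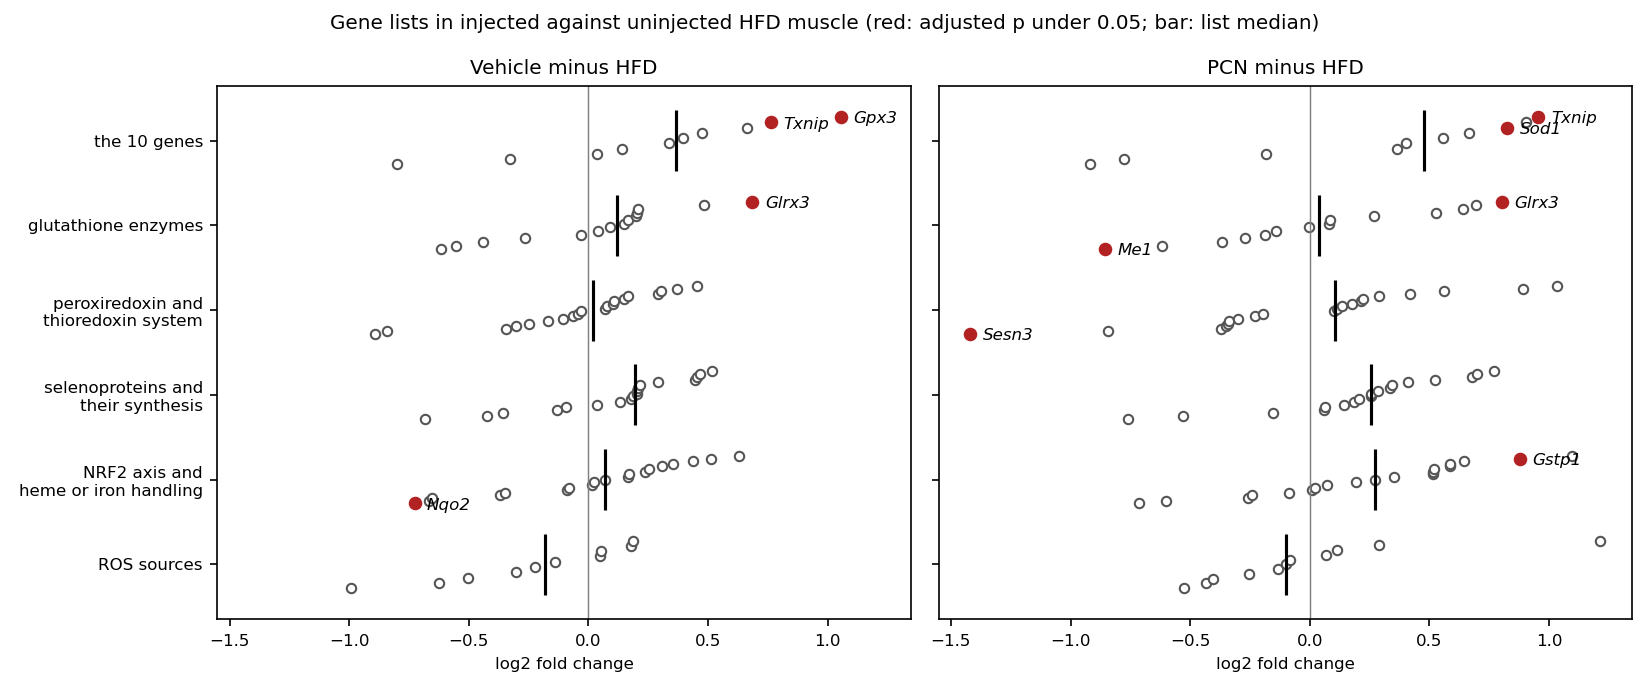
Log2 fold changes of tested genes in 6 lists, for Vehicle minus HFD (left) and PCN minus HFD (right). Each point is a gene, red points had an adjusted p under 0.05 and are named, and the black bar is the list's median. The medians of the 10 genes lie at 0.37 and 0.48, and those of the other 5 lists between -0.18 and 0.27.

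In PCN against Vehicle and in HFD against Chow, 0 genes of these 5 lists passed. In PCN against Vehicle, 18 of 19 genes of the NRF2 axis and heme or iron handling had a fitted value above 0, against 52.3% of all genes, at a median of 0.12. This was the most one-sided list. The count was 4 of the 10 genes, 7 of 14 glutathione enzyme genes and 10 of 20 peroxiredoxin and thioredoxin genes. It was 11 of 18 selenoprotein and selenium-pathway genes and 5 of 11 genes that produce reactive oxygen. Of the 19, 1 had an unadjusted p under 0.05 (edgeR), against 2.82% of all genes. Higher without overlap were 0 of the 19, against 4.4%. The list mixes activators, targets and repressors. Keap1 (0.34) and Bach1 (0.05), which restrain this axis, are among the 18, so the count gives no direction of NRF2 activity. The 19 genes were also read in the same libraries and are not independent. The lowest p among the 19 was that of Ftl1, the ferritin light chain, at 0.62 (adjusted p = 0.998, edgeR). In HFD against Chow the lowest p over the 5 lists was that of Sesn3, at 0.71 (adjusted p = 0.361).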

How the data were processed

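Skeletal muscle RNA was sequenced in 12 libraries of 4 groups. The authors deposited raw counts in 2 tables, 24453 genes with PCN and Vehicle and 24093 genes with HFD and Chow, together with their own log2 fold changes and p-values, which are used only where named. Per the submitters' processing notes, the tools included HTSeq, HISAT2 and DESeq2, and GRCm38 and mm10 are the builds listed. The sources used here give neither versions nor the strand setting. Columns were matched to samples by their titles. Libraries of a group differed by far more than sampling noise (chi-square per gene 19.5 to 108), so each counted as 1 sample.

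For every comparison, edgeR 4.0.16 (R 4.3.3) was run on the 6 libraries compared: libraries were scaled by TMM, genes were filtered at edgeR's defaults (minimum count 10), and differences were tested by the robust quasi-likelihood F test with Benjamini-Hochberg adjustment over all genes tested, at a threshold of 0.05. Comparisons across tables used the 21976 genes in both, with TMM run on the raw counts of the libraries compared. Levels are CPM after TMM over all 12 libraries. A positive log2 fold change means a higher level in the group named first. SE values were derived from the fold change and the F statistic. Exon lengths, with the exons of all transcripts of a gene merged, came from GENCODE M21. It has the positions of all 10 genes as the tables give them. Promoter windows came from RefSeq, GRCm38.p6, trimmed to the 250 bases before the start.

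The 10 genes and the other lists were chosen with earlier results of these data known. Genes named are all 10, up to 3 of the lowest p in each other list per comparison, and the 6 named genes most like Gpx3. The slow and oxidative fibre list, Gm15441 and the fibre marker Myh7 were singled out after the data were seen. Alternatives were DESeq2 1.42.0, its size factors in edgeR, other filters, an adjusted p of 0.10, all 12 libraries in 1 fit, and libraries left out. Both tools were tested on simulated counts in which the changed genes were known.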

Additional observations from a re-analysis of the deposited data

How the results depend on the processing

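Without an expression filter the genes past the threshold were 21 for PCN against Vehicle, 672 for PCN against HFD, 571 for Vehicle against HFD, 237 for HFD against Chow and 185 over the 4 groups, with 4 of the 10 genes called in PCN against HFD, 2 in HFD against Chow and 2 over the 4 groups. DESeq2 called 816 genes (5 of the 10) in PCN against HFD, 614 (4 of the 10) in Vehicle against HFD, 43 (1 of the 10) in HFD against Chow and 764 (5 of the 10) over the 4 groups. On simulated counts, DESeq2's test over the 4 groups made false calls above its nominal rate, so that count may be a loose one. The simulation gave every gene the same spread between libraries, so how far it holds for these counts was not tested. At an adjusted p of 0.10 there were 848 genes (4 of the 10), 564 (4 of the 10) and 215 (2 of the 10) in PCN against HFD, in Vehicle against HFD and over the 4 groups. A mean of at least 1 CPM left 13 genes over the 4 groups, and 1 fit of all 12 libraries left 0 genes and 0 of the 10 in Vehicle against HFD. The cause was not tested.

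With each library left out in turn, genes called ranged from 0 to 634 in PCN against HFD (0 of the 10 to 2), from 0 to 1180 in Vehicle against HFD (0 to 6), from 0 to 219 in HFD against Chow (0 of the 10), from 3 to 216 over the 4 groups (0 to 2) and stayed at 0 in PCN against Vehicle. PCN against HFD gave 0 genes without HFD 4, 3 without HFD 30, 3 without HFD 38, 192 without PCN 27 and 634 without PCN 11. Vehicle against HFD gave 9 without Vehicle 15, 0 without Vehicle 23, 1180 without Vehicle 55, 14 without HFD 4, 0 without HFD 30 and 48 without HFD 38. HFD against Chow gave 219 without Chow 19.

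Of single-gene fold changes, 202 kept direction and call when a library was left out. With direction kept, 17 lost their call and 4 gained one. Only Gpx3 and Txnip in Vehicle against HFD, and Sod1 and Txnip in PCN against HFD, had a call to lose. The other 17 changed sign. In PCN against Vehicle the ranges were -0.48 to 0.012 for Gpx3, -0.27 to 0.46 for Gpx1, -0.075 to 0.10 for Gpx4, -0.40 to 0.74 for Cat, -0.14 to 0.038 for Prdx3 and -0.37 to 0.54 for Hmox1. In PCN against HFD they were -0.12 to 0.60 for Gpx1 and -0.052 to 0.97 for Cat. In Vehicle against HFD they were -0.0089 to 0.28 for Gpx1, -0.045 to 0.13 for Sod2, -0.70 to 0.26 for Sod3 and -0.21 to 0.60 for Cat. In HFD against Chow they were -0.17 to 0.17 for Gpx1 and -0.20 to 0.021 for Cat. With PCN 5 and Vehicle 55 left out together, chosen after seeing the data, PCN minus Vehicle was 0.019 for Gpx3, -0.32 for Gpx1, 0.14 for Sod3 and 0.47 for Hmox1. Without Chow 17 and Chow 19, Gpx1 was -0.25 in HFD minus Chow, a comparison with Chow 8 alone, the Chow library highest in Gpx1.

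No paired analysis was possible because the libraries of different groups share no replicate number. With 3 libraries a group, Sod3 (38 to 190 counts) and Hmox1 (91 to 378 counts) rested on the fewest counts. Among the genes described here, Sod3 and Hmox1 had the largest SE in Vehicle against HFD (0.47 and 0.46). The same held in HFD against Chow (0.37 and 0.25). Cat had the largest SE in PCN against Vehicle (0.60) and in PCN against HFD (0.49).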
